A study of Homo sapiens with 18 samples.

Results

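Notch receptors, ligands, the nuclear effector RBPJ and the HES and HEY targets were examined in 2 established human brain tumor lines, U87mg from a glioblastoma and DAOY from a desmoplastic cerebellar medulloblastoma. The 10 genes were NOTCH1, NOTCH2, NOTCH3, JAG1, JAG2, DLL1, HES1, HEY1, HEYL and RBPJ, taken by name from the deposited table, where they had 67 of 145326 transcripts and made 10 of 36873 genes once transcripts were added up by gene. Both lines were wild-type cultures without a transgene in the labels, grown as spheroidal aggregates, which the labels describe as a mix made from 700 K and 1.4 M cells and the study's methods as made from 700 K cells. Aggregates were held for 24 h in Matrigel-filled channels and a direct current electrical field of 250 V/m was then applied for 2 or 8 h or not at all (0 h), with 3 libraries for each line and time and 3 channels pooled into each library. Each tumor type was represented by a single line, and no aggregates kept in the channel for 2 or 8 h without the field were analysed here, so that an effect of the field and one of longer culture in it cannot be told apart.

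Notch signaling passes between touching cells. A Jagged or Delta ligand on the sending cell pulls on a Notch receptor of its neighbour, an ADAM protease and then gamma-secretase cut the receptor, and the freed intracellular domain joins RBPJ and a Mastermind coactivator on DNA to switch on genes such as the HES and HEY repressors. Without that domain RBPJ can sit with corepressors and keep the same genes low. In the developing brain the pathway holds neural progenitors back from differentiating, and in the cerebellum NOTCH2 is known for its part in granule neuron precursors, the lineage from which many medulloblastomas arise.

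The estimated counts per library summed to between 8341976 and 15610886. Libraries of the same line correlated at r between 0.954 and 0.99 in U87mg and between 0.921 and 0.992 in DAOY, across genes on the log2 scale, and libraries of different lines between 0.667 and 0.741. The mesenchymal markers VIM, CD44, FN1 and TNC were above 1 TPM in every library of both lines, TPM being a level corrected for transcript length and scaled to the same total in each library. Of 7 glial and neural stem markers, 2 averaged at least 1 TPM in U87mg and 1 in DAOY, GFAP averaging 1.16 and 0.4 TPM. Of 7 granule lineage and medulloblastoma markers measured, 5 averaged at least 1 TPM in U87mg and 4 in DAOY, and NEUROD1 stayed at or under 0.176 TPM in every library. Of 5 neuron markers, 4 did so in either line. Endothelial markers summed to between 2.1 and 3.55 TPM in U87mg and between 10.9 and 18 in DAOY, and 1 of 5 averaged at least 1 TPM in U87mg against 3 of 5 in DAOY. PECAM1 averaged 1.29 TPM in U87mg and 8.29 TPM in DAOY, where ERG averaged 3.42 and TEK 1.81 TPM, while CDH5 was at or under 0.22 TPM in every library. Leukocyte markers summed to at most 1.96 TPM. The part of other cell types in the results was not tested.

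Most members differed in level between the lines. At 0 h the ranges of NOTCH1 and NOTCH3 overlapped in TPM, but not in counts scaled to library size. In DAOY, RBPJ (78.8 ± 30.8 TPM, mean ± SD of 9 libraries), NOTCH2 (68.4 ± 11.7 TPM) and HES1 (56.6 ± 6.8 TPM) were the most abundant, followed by JAG1 (33.8 ± 6.37 TPM), HEY1 (18.7 ± 5.41 TPM) and NOTCH3 (10.9 ± 3.27 TPM). JAG2, NOTCH1 and DLL1 came next at 2.16, 2.03 and 2.01 TPM, and HEYL was lowest at 0.626 ± 0.237 TPM. In this order the ranges of neighbouring genes overlapped, except between HES1 and JAG1, NOTCH3 and JAG2, and DLL1 and HEYL. In U87mg, RBPJ (180 ± 18.7 TPM, n = 9) and NOTCH2 (119 ± 7.99 TPM, n = 9) stood alone, their ranges overlapping neither each other nor the next gene. NOTCH3 (6.69 ± 2.33 TPM), JAG1 (4.45 ± 1.09 TPM), NOTCH1 (2.09 ± 0.568 TPM), HES1 (2.02 ± 0.957 TPM) and HEY1 (1.34 ± 0.533 TPM) formed a run with overlapping neighbours. JAG2, DLL1 and HEYL had at most 3 estimated counts in any U87mg library, and HEYL had 0 in all 9.

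**Figure D1:**
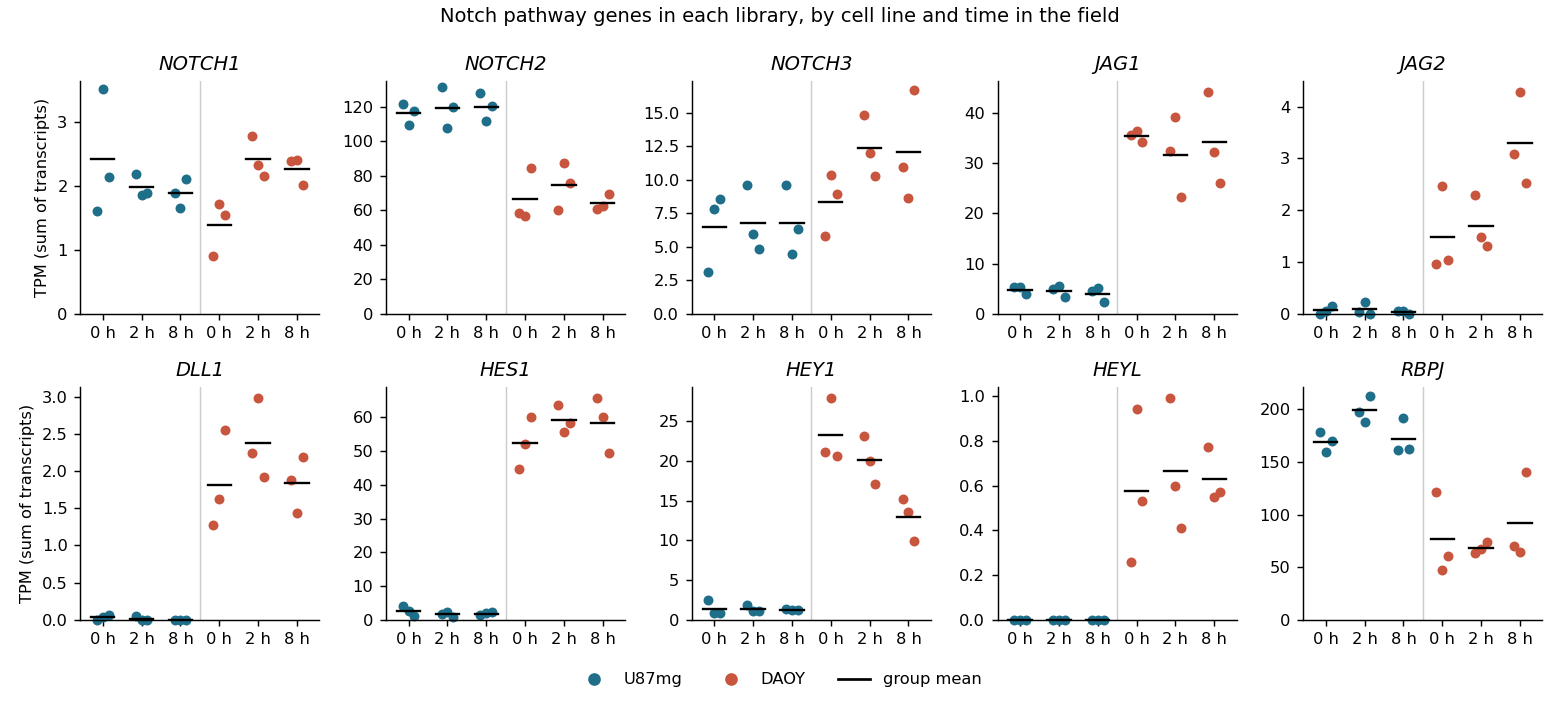
Level of each of the 10 genes in TPM (vertical axes from 0, a scale of its own in each panel) in every library, by cell line and hours in the field, with the 3 libraries of a group as points and their mean as a line. HES1 lay between 44.7 and 65.7 TPM in DAOY and between 0.904 and 4.08 TPM in U87mg, and HEY1 in DAOY lay between 9.96 and 15.2 TPM at 8 h and between 20.6 and 27.9 TPM at 0 h.

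NOTCH2 made up most receptor message in both lines. Its share of the summed TPM of NOTCH1 to NOTCH4 was 92.4% ± 1.9 in U87mg and 83.3% ± 4.3 in DAOY (SD, n = 9). JAG1, a ligand of all Notch receptors, held 98.4% ± 1.78 and 88.8% ± 2.92 of the summed TPM of JAG1, JAG2 and DLL1. Summed ligand TPM over summed receptor TPM was 0.0356 ± 0.01 in U87mg and 0.474 ± 0.119 in DAOY, and the highest U87mg library (0.0492) lay below the lowest DAOY library (0.297). Receptor message exceeded the message of these ligands in every library of both lines. The ligand sum leaves out further ligands, so the ratio and its contrast between the lines hold for JAG1, JAG2 and DLL1 only. Among those left out, DNER, a proposed ligand, averaged 129 TPM in U87mg and 14.1 TPM in DAOY at 0 h. The summed receptors averaged 129 TPM in U87mg and 82 TPM in DAOY over the 9 libraries of each line. With DNER counted, ligand message in U87mg would not lie far below receptor message. DLK1 and DLL3 went the other way, at 6.15 and 1.43 TPM in DAOY and 0 and 0.0229 TPM in U87mg.

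The comparison of DAOY with U87mg at 0 h asked how the pathway stood in either line before any field. Its tests used gene sums of estimated counts in edgeR's quasi-likelihood test, with the p-value adjusted over all 16622 genes tested (the false discovery rate, FDR). Differential expression meant an FDR under 0.05 together with a log2 fold change of 1 or more in size. Of the 7 members above the filter on low counts in both lines, 6 passed the FDR, 3 higher and 3 lower in DAOY, as did 60.3% of all genes tested (32.6% higher and 27.7% lower). Both criteria were passed by 4 of the 7, as by 41.1% of all genes (23.3% higher and 17.8% lower). The 3 higher in DAOY by both were JAG1, HES1 and HEY1, and the 1 lower was RBPJ. The median log2 fold change of the 7 members was 0.38 and the median absolute one 1.42, against 0.05 and 0.85 over all genes. With all 9 libraries of each line, the ranges of 5 of these 7 genes did not overlap, as for 40.4% of all genes. The shares and medians over all genes include genes that passed the filter only through a single line, where a difference was built in. They are therefore not a like-for-like measure for these 7 genes. Because these are bulk samples, fewer cells of a type and less RNA per cell cannot be told apart.

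Among the receptors, NOTCH2 had 122, 110 and 118 TPM in the 3 U87mg libraries at 0 h and 58.2, 56.5 and 84.3 TPM in those of DAOY. All 3 DAOY values lay below the U87mg ones, and the log2 fold change was -0.86 ± 0.17 (SE; edgeR adjusted p = 0.000351). NOTCH1, which is best known from T cell leukemia and is also active in neural stem cells, had 1.6, 3.51 and 2.14 TPM in U87mg and 0.912, 1.72 and 1.55 TPM in DAOY, with overlapping ranges. Its log2 fold change was -0.70 ± 0.22 (adjusted p = 0.0105). Without replicate 1 of U87mg at 0 h, its highest value, it was -0.46 with an adjusted p of 0.0882 by the same edgeR test, and over the other processing settings the adjusted p ran from 0.00857 to 0.101. NOTCH4, the remaining receptor, averaged 1.11 TPM over the U87mg libraries and 0.645 TPM over those of DAOY. At 0 h it had 0.781 ± 0.595 TPM in DAOY against 1.24 ± 0.198 TPM in U87mg. On counts its log2 fold change was -1.62 (edgeR adjusted p = 0.016), which passed both criteria, and it was described after its values were seen. The TPM means lie closer together than that fold. NOTCH4 also passed the FDR of DESeq2, and its call under the other settings is not given here. NOTCH3, the receptor typical of vascular smooth muscle and pericytes, had 3.13, 7.8 and 8.53 TPM in U87mg and 5.82, 10.4 and 8.89 TPM in DAOY, and did not pass (log2 fold change 0.38 ± 0.25, adjusted p = 0.202).

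Among the ligands, JAG1 was higher in DAOY, at 35.6, 36.4 and 34.2 TPM against 5.22, 5.31 and 3.92 TPM in U87mg. The groups lay far apart, 6.66-fold, and the log2 fold change was 2.74 ± 0.25 (adjusted p = 5.4e-08). JAG2 and DLL1 passed the filter only through DAOY, so that a difference was built in, and ratios of counts are given in place of fitted folds. JAG2, a second Jagged ligand, had 11, 51 and 23 estimated counts in DAOY at 0 h and 0, 2 and 3 in U87mg, which scaled to library totals is a ratio of 21.6 (95% exact interval 8.89 to 68.1). DLL1, the Delta ligand of early neurogenesis, had 25, 37 and 32 counts in DAOY and 0, 1 and 2 in U87mg, a ratio of 39.8 (13.2 to 196). These intervals cover counting error only. Both ligands were present in each DAOY library and at 3 counts or fewer in each U87mg library.

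HES1 and HEY1 had larger fold changes between the lines than the receptors or JAG1. HES1, a repressor of proneural genes, had 44.7, 52.1 and 60 TPM in DAOY at 0 h and 4.08, 2.56 and 1.11 TPM in U87mg. Its log2 fold change was 4.26 ± 0.34 (adjusted p = 1.07e-08), a 19.1-fold difference. HEY1, a related repressor with known roles in vessel and heart development, had 21.1, 27.9 and 20.6 TPM in DAOY and 2.5, 0.831 and 0.835 TPM in U87mg. The log2 fold change was 4.10 ± 0.34 (adjusted p = 1.91e-08). For both targets every DAOY library exceeded every U87mg library by a wide gap. HEYL had 6, 25 and 11 counts in DAOY and 0 in all U87mg libraries, and was at least 17.8-fold higher in DAOY against a floor of 3 counts over the U87mg group. Like JAG2 and DLL1, HEYL passed the filter only through DAOY, so that a difference was built in.

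RBPJ went the other way. It had 503 CPM on average in U87mg at 0 h and 186 in DAOY, CPM being counts scaled to the size of each library without a correction for length. The log2 fold change was -1.42 ± 0.21 (adjusted p = 1.57e-05), and the 3 DAOY libraries at 230, 140 and 190 lay below the U87mg ones at 589, 401 and 517. With all 9 libraries of each line, the RBPJ and NOTCH2 ranges of DAOY lay below those of U87mg, while the JAG1, HES1 and HEY1 ranges lay above them.

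**Figure D2:**
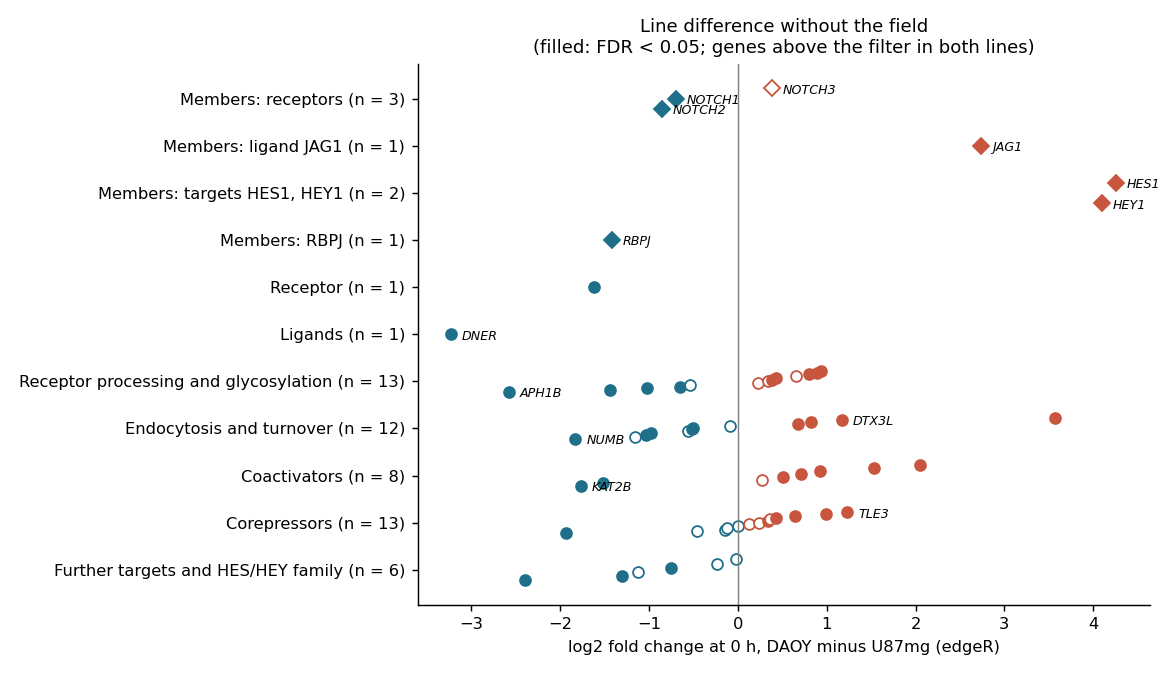
Log2 fold change at 0 h, DAOY minus U87mg, for the 7 members (diamonds, by role) and 54 further pathway genes (circles, by class) above the filter in both lines; filled symbols passed the FDR, and members and genes discussed singly are labelled. Among the members HES1 (4.26) and HEY1 (4.10) lie farthest to the right, and RBPJ (-1.42) and NOTCH2 (-0.86) farthest to the left.

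The 250 bases before the start of HES1, HEYL and other members in RefSeq (GRCh38.p14) were searched for TGGGAA, the core of the site that RBPJ binds, on both strands. The HES1 promoter is shown because HES1 is a textbook direct target of the Notch complex and had the largest fold of the 7 members above. It is given from chr3:194135898-194136144 on the plus strand, 5′ to 3′, up to the gene start of GENCODE 29, with matches in capitals.
HES1: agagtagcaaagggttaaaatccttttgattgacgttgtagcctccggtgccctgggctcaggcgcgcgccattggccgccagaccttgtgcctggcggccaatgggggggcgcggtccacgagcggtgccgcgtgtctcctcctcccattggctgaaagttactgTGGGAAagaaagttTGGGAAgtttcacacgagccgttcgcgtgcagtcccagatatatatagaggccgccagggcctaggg
The matches begin 84 and 70 bases before the RefSeq start. HEYL also held 2 matches, shown with their flanks on its own strand, minus, of chromosome 1, from chr1:39639806-39639831 and chr1:39639727-39639752. The former match is on the reverse strand and reads TTCCCA. Both lie in the first exon, 5′ UTR, as GENCODE 29 draws the gene.
HEYL site 1: gcctagggccTTCCCAcggctcggcg
HEYL site 2: gaaagggcccTGGGAAagggcggtgg
At least 1 match was found in 20.8% of all 35116 RefSeq windows of this length and at least 2 in 2.9%. The windows of NOTCH1, NOTCH2, NOTCH3, JAG1 and JAG2 held 0 matches, and 1 of 5 windows of RBPJ held 2. The HES1 window also had 3 matches to CACNAG, the N-box letters through which HES1 protein can repress its own gene, which 32% of all windows held at least once. HEY1 and DLL1 were not searched. A match of letters is no evidence of binding here.

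The comparisons of 2 h and 8 h with 0 h asked whether the field moved these genes. In U87mg, 14205 genes were tested, 7 members among them, because JAG2, DLL1 and HEYL were filtered out. By edgeR's quasi-likelihood test 0 of 7 members passed the FDR at 2 h, as did 0% of all genes, and 0 of 7 at 8 h, where 1.62% of all genes passed the FDR and 0.605% both criteria. At an unadjusted p under 0.05 there were 0 members at either time, against 8.64% and 15.8% of all genes, and DESeq2 called 0. In CPM the ranges of 0 of the 7 members were apart from those of 0 h at either time, against 11.7% and 17% of all genes, while in TPM that of RBPJ at 2 h was. The median absolute log2 fold change of the members was 0.28 at 2 h and 0.11 at 8 h, against 0.23 and 0.2 over all genes. Both comparisons share the same 0 h libraries.

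NOTCH2 in U87mg stayed close, with 955, 764 and 869 CPM at 2 h and 1010, 804 and 926 at 8 h, against 962, 761 and 854 at 0 h. Its log2 fold changes were 0.02 ± 0.13 and 0.13 ± 0.13. RBPJ had 593, 547 and 677 CPM at 2 h against 589, 401 and 517 at 0 h, and its log2 fold change of 0.28 ± 0.14 did not pass (unadjusted p = 0.0602 and adjusted p = 0.497 by edgeR). At 8 h it was -0.03 ± 0.14. For HES1 the log2 fold changes were -0.66 ± 0.51 and -0.45 ± 0.49, and for HEY1 0.13 ± 0.44 and 0.10 ± 0.44, with 6 to 41 counts of HES1 and 13 to 32 of HEY1 in the U87mg libraries. At this depth only large changes of these targets could have been seen in U87mg. JAG1 (-0.11 ± 0.25 and -0.35 ± 0.25), NOTCH1 (-0.32 ± 0.23 and -0.11 ± 0.23) and NOTCH3 (-0.36 ± 0.27 and 0.08 ± 0.27) did not pass either.

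**Figure D3:**
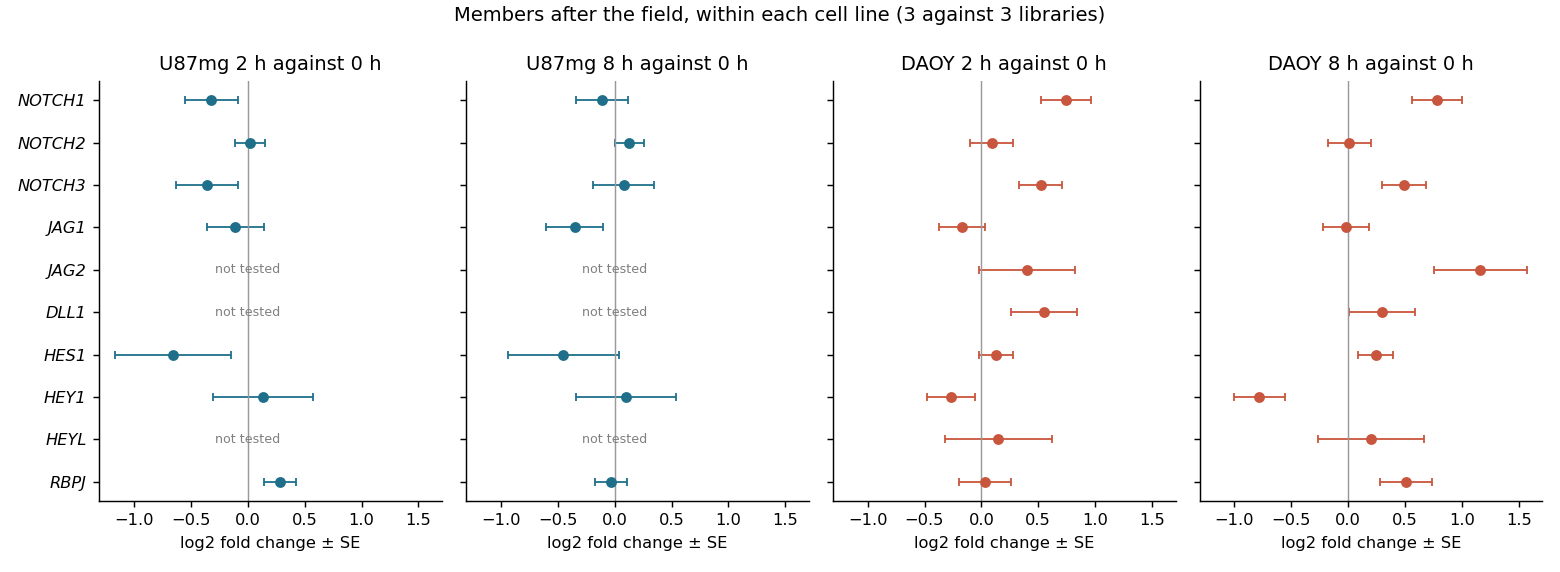
Log2 fold change of each member against 0 h (horizontal axis, bars 1 SE, from edgeR's fit of the 9 libraries of a line) at 2 h and 8 h in U87mg and DAOY, each from 3 against 3 libraries. The values farthest from 0 in DAOY at 8 h are JAG2 (1.16), NOTCH1 (0.78) and HEY1 (-0.78), and 0 of the members passed the FDR in any panel.

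In DAOY all 10 members were among 15458 genes tested, and again 0 passed the FDR at 2 h, as did 0% of all genes, and 0 at 8 h, where 5.45% of all genes passed the FDR and 3.03% both criteria. At an unadjusted p under 0.05 there were 2 members at 2 h (NOTCH1 and NOTCH3), against 2.67% of all genes, and 4 at 8 h (HEY1, NOTCH1, JAG2 and NOTCH3), against 22.5%. The ranges in CPM were apart from those of 0 h for 3 of 10 members at 2 h (NOTCH1, NOTCH3 and DLL1), against 6.92% of all genes, and for 4 of 10 at 8 h (NOTCH1, NOTCH3, JAG2 and HEY1), against 25.6%. DESeq2 called 0 members at 2 h and 2 at 8 h by its FDR, HEY1 and NOTCH1, against 9.61% of all genes at 8 h. The median absolute log2 fold change of the members was 0.22 at 2 h and 0.4 at 8 h, against 0.16 and 0.31 over all genes.

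HEY1 came closest to the threshold. It had 32.7, 33.5 and 24.3 CPM in DAOY at 0 h, 29.2, 23.1 and 22.1 at 2 h, and 19.3, 19.5 and 13 at 8 h. The 8 h libraries all lay below those of 0 h. The log2 fold change at 8 h was -0.78 ± 0.22 (unadjusted p = 0.00421 and adjusted p = 0.0605 by edgeR), and at 2 h -0.27 ± 0.21. DESeq2 gave an adjusted p of 0.0234 and edgeR without a filter on low counts 0.0315, in a range from 0.0234 to 0.117 over the settings that used all replicates.

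NOTCH1 in DAOY had 6.32, 9.26 and 8.45 CPM at 0 h, 15, 12.7 and 12.3 at 2 h, and 13.7, 15.3 and 11.9 at 8 h. Both exposed groups lay above 0 h without overlap. The log2 fold change was 0.74 ± 0.22 at 2 h (unadjusted p = 0.00699 and adjusted p = 1 by edgeR) and 0.78 ± 0.22 at 8 h (0.00508 and 0.0673). At 8 h the adjusted p was 0.0219 with DESeq2 and 0.0344 with all 18 libraries in the fit, in a range from 0.0219 to 0.262 over the settings that used all replicates. These sums rest on 56 to 162 estimated counts per DAOY library.

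NOTCH3 in DAOY had 37.2, 36.3 and 43.3 CPM at 0 h, 67.1, 52.7 and 46.7 at 2 h and 57.1, 43.8 and 60.3 at 8 h. Its ranges on this scale did not overlap those of 0 h, while in TPM they did, and its log2 fold changes were 0.52 ± 0.19 (adjusted p = 1) and 0.49 ± 0.19 (adjusted p = 0.155). JAG2 had 1.24, 3.94 and 2.31 CPM at 0 h and 5.65, 6.3 and 4.88 at 8 h, without overlap, and a log2 fold change of 1.16 ± 0.41 that did not pass (adjusted p = 0.128). At 2 h its ranges overlapped (0.40 ± 0.42). JAG2 rested on 11 to 64 counts per DAOY library.

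NOTCH2, JAG1 and HES1 did not pass in DAOY at either time. NOTCH2 was at 0.09 ± 0.19 and 0.01 ± 0.19 on the log2 scale, JAG1 at -0.17 ± 0.20 and -0.02 ± 0.20, and HES1 at 0.13 ± 0.15 and 0.24 ± 0.15. HES1 had 42.9 to 50 CPM at 0 h, 45.7 to 53 at 2 h and 44.7 to 57.7 at 8 h, with overlapping ranges. DLL1 had 2.82, 2.86 and 3.22 CPM at 0 h and 3.99, 5.35 and 3.59 at 2 h, apart on this scale but overlapping in TPM, and its log2 fold changes of 0.55 ± 0.29 and 0.30 ± 0.29 did not pass. HEYL was at 0.15 ± 0.47 and 0.20 ± 0.47. RBPJ had 203, 225 and 353 CPM at 8 h against 230, 140 and 190 at 0 h, and its log2 fold change of 0.51 ± 0.23 did not pass (adjusted p = 0.223). Without replicate 2 of DAOY at 8 h, the highest library, it was 0.23.

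Whether the change from 0 h differed between the lines was tested as an interaction over all 18 libraries. By edgeR's quasi-likelihood test 0 members passed at 2 h, as did 0% of all 16622 genes, and 0 at 8 h, where 0.012% of genes passed (2 genes, both in the higher direction), and DESeq2 called 0 members at either time. At an unadjusted p under 0.05 there were 2 members at 2 h, NOTCH1 and NOTCH3, and 1 at 8 h, NOTCH1, among the 7 members for which a fold could be given, against 6.4% and 8.74% of all genes. The difference of the log2 changes, DAOY minus U87mg, was 1.05 ± 0.31 at 2 h (unadjusted p = 0.00336 and adjusted p = 0.622) and 0.90 ± 0.31 at 8 h (0.0094 and 0.339) for NOTCH1, and 0.86 ± 0.35 and 0.41 ± 0.35 for NOTCH3. For HEY1 it was -0.89 ± 0.46 at 8 h (adjusted p = 0.627). JAG2, DLL1 and HEYL were left out because U87mg had next to no counts.

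Most members were read from a single transcript. ENST00000256646 held between 97.4% and 99.8% of NOTCH2 TPM in all libraries, ENST00000277541 100% of NOTCH1 in DAOY, and ENST00000232424 between 93.2% and 98.9% of HES1 in DAOY. JAG2 in DAOY was carried mostly by a retained-intron transcript of 7 exons, ENST00000546616 (median share 51.4%), and by the coding transcript ENST00000331782 (median share 30.5%), with 0 TPM of the latter in at least 1 library. HEY1 in DAOY divided between ENST00000354724 (7.33 to 24.3 TPM) and ENST00000337919 (0 to 10.4 TPM), which differ little and between which reads are hard to divide. Of 17 member transcripts tested in U87mg and 19 in DAOY, 0 were differentially expressed in any comparison by edgeR, as were 0% of all transcripts, and DESeq2 called 0. At an unadjusted p under 0.05 there were 1 and 0 in U87mg at 2 h and 8 h, against 5.56% and 6.3% of all transcripts, and 2 and 5 in DAOY, against 3.07% and 10.3%.

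RBPJ had 28 transcripts in the table, and its TPM depended on how its reads were divided. The coding transcript ENST00000342320, of 11 exons, had between 99.8 and 166 TPM in U87mg and between 37.2 and 84.5 TPM in DAOY. In replicate 0 of DAOY at 0 h the RBPJ sum was 121 TPM, of which 48.7 TPM came from 28 estimated counts of the short 4-exon transcript ENST00000514807, which was at 0 in the other 8 DAOY libraries. In estimated counts that library had 2035 of RBPJ, against 1810 and 1885 in replicates 1 and 2. In CPM it was the highest of its group, at 230 against 140 and 190. ENST00000355476 was also higher there, at 14.4 TPM against 2.16 and 6.17, while ENST00000342320 was not, at 37.2 TPM against 38.5 and 48.9. In replicate 2 of DAOY at 8 h, by contrast, ENST00000342320 itself had 84.5 TPM against 50.7 and 53 in the other two.

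**Figure D4:**
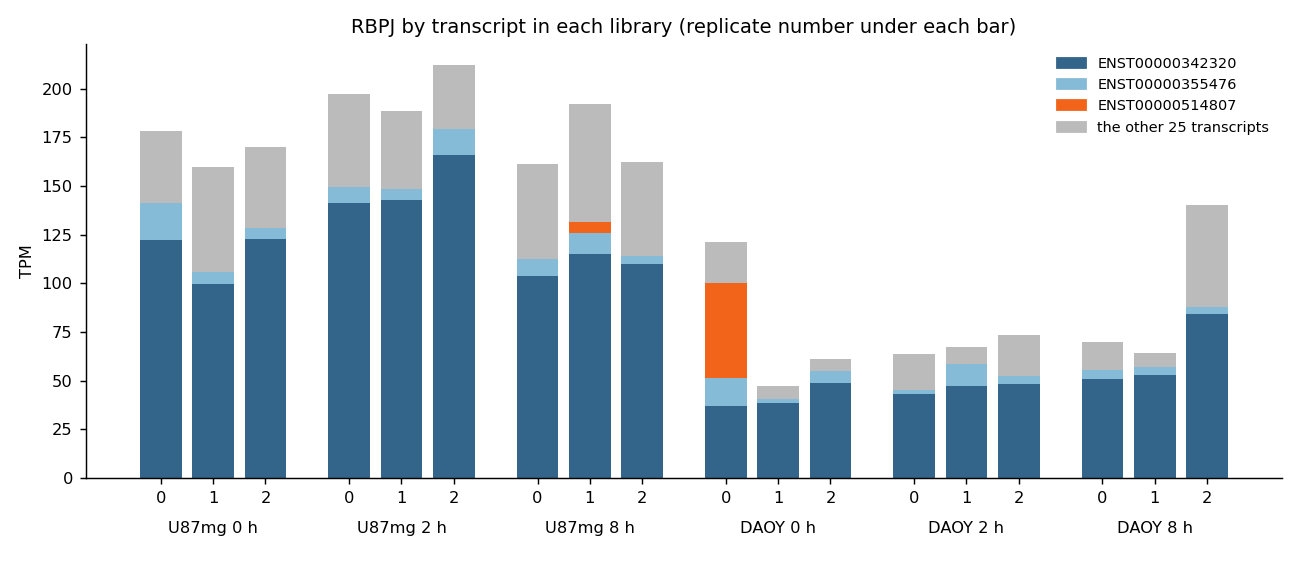
RBPJ level in TPM (vertical axis from 0) in each library, stacked by transcript, with the replicate number under each bar and no error bars since each bar is 1 library. ENST00000342320 makes up most of each bar except in replicate 0 of DAOY at 0 h, where ENST00000514807 adds 48.7 TPM.

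The rest of the pathway was followed in a list of 70 further genes. At 0 h, 54 of them were above the filter in both lines, and of these 19 were higher and 17 lower in DAOY at the FDR, against 32.6% and 27.7% of all genes, and 5 and 12 by both criteria, against 23.3% and 17.8%, with a median log2 fold change of -0.01 and a median absolute one of 0.73. By class, 9 of 13 genes of receptor processing and glycosylation passed the FDR, 9 of 12 of endocytosis and turnover, 7 of 8 coactivators and 6 of 13 corepressors, against 60.3% of all genes. As with the members, the shares over all genes include genes that passed the filter only through a single line. Of 9 further targets and HES and HEY family genes tested at 0 h, 3 were higher and 3 lower in DAOY at the FDR. The 3 higher passed the filter only through DAOY, so that a difference was built in. Of the 6 above the filter in both lines, 3 passed the FDR, all lower in DAOY, 2 of them by both criteria. Of these 6, 0 were higher, and their median log2 fold change was -0.94. Among them, chosen after its values were seen, CCND1, which encodes cyclin D1, had 67 ± 34.5 TPM in DAOY against 352 ± 23.7 TPM in U87mg (SD, n = 3; -2.40, adjusted p = 2.4e-05).

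APH1B, a subunit of gamma-secretase, was lower in DAOY at 0 h (log2 fold change -2.58 ± 0.18, adjusted p = 2e-09), at 15.9 ± 1.73 TPM against 31.7 ± 8.45 TPM in U87mg. On the TPM scale by limma its log2 fold change was -0.93, past the FDR but short of the fold criterion. DNER, a transmembrane protein of neurons proposed as a Notch ligand, was lower (-3.23 ± 0.29), at 14.1 ± 0.873 TPM against 129 ± 26.6 TPM in U87mg. NUMB, which sends Notch receptors to degradation, was lower as well (-1.83 ± 0.19), with 65.5 ± 13.1 TPM against 202 ± 23.4 TPM (SD, n = 3). KAT2B, an acetyltransferase recruited by the active complex, was at -1.77 ± 0.17. L3MBTL3, which binds RBPJ and represses its targets, passed the filter only through U87mg, with 180 counts over the U87mg libraries at 0 h and 0 in all 9 DAOY libraries, at least 47.3-fold lower.

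On the other side, DTX3L, an E3 ubiquitin ligase of the Deltex family, was higher in DAOY (1.17 ± 0.15), as was TLE3, a Groucho corepressor (1.23 ± 0.16). By limma on log2(TPM + 0.1) the TLE3 difference was 0.68 and did not pass (adjusted p = 0.0638). The further Notch targets NRARP and HEY2 and the ligase DTX1 had higher counts in DAOY, but they passed the filter on low counts only through the DAOY libraries, so that a difference was built in. NRARP, a feedback inhibitor that Notch switches on, had 104 counts over the DAOY libraries at 0 h and 0 in U87mg, at least 44-fold higher. DTX1, itself a Notch target in lymphocytes, had 212 counts against 1 (ratio 269, exact interval 47.8 to 10700), and HEY2 had 47, 71 and 52 counts in DAOY against 9, 2 and 8 in U87mg, or 3.54 ± 0.521 TPM against 0.311 ± 0.196 TPM.

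After the field, 0 of 55 further genes in U87mg and 0 of 61 in DAOY passed the FDR at 2 h by edgeR or DESeq2, and 2 in either line had an unadjusted p under 0.05, against 8.64% of all genes in U87mg and 2.67% in DAOY. In U87mg at 8 h, 2 of 55 passed the FDR, 1 higher and 1 lower, against 0.845% of all genes higher and 0.774% lower, and 1, LFNG, passed both criteria, against 0.155% higher and 0.451% lower. DESeq2 passed 6 of 55 by its FDR, against 3.86% of all genes. EP300, the p300 acetyltransferase that works with the Notch complex, rose from 35.3, 31.4 and 29.5 TPM to 47.7, 52.4 and 59.7 TPM, without overlap (log2 fold change 0.64 ± 0.13, adjusted p = 0.0381). LFNG, the Lunatic fringe glycosyltransferase that alters which ligands a receptor answers, fell from 0.781, 4.26 and 4.95 TPM to 0.557, 0.74 and 0.338 TPM (-2.40 ± 0.52, adjusted p = 0.0428). Replicate 0 at 0 h was already as low as the 8 h libraries, with 12 counts against 12, 10 and 5. When each library was left out in turn, the EP300 call was lost in 6 of 9 fits, all but those without replicate 0 at 0 h or replicate 0 or 1 at 8 h, and the LFNG call in 8 of 9, all but that without replicate 0 at 0 h (-2.81). On the TPM scale by limma neither passed.

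In DAOY at 8 h, 5 of 61 passed the FDR, 4 higher and 1 lower, against 2.23% of all genes higher and 3.23% lower, and DESeq2 passed 9, against 9.61% of all genes. By both criteria 1 passed, lower, against 1.19% of all genes higher and 1.84% lower. The median log2 fold change of the 61 was 0.19 against -0.01 over all genes. HEY2 fell from 2.96, 3.97 and 3.69 TPM to 1.85, 1.61 and 1.28 TPM, with no overlap (-1.04 ± 0.27, adjusted p = 0.0478), and alone of the 5 passed both criteria. Its class did not fall as a whole. Of 9 further targets and HES and HEY family genes tested, 6 had log2 fold changes above 0 and 3 below, with a median of 0.55. SPEN, a corepressor that binds RBPJ, rose from 1027, 1145 and 883 counts to 1763, 1705 and 2048 (0.93 ± 0.16, adjusted p = 0.0139). MAML1, a Mastermind coactivator, rose by 0.68 ± 0.15 (adjusted p = 0.0327), NUMB by 0.71 ± 0.17 (adjusted p = 0.0388) and CREBBP, the CBP acetyltransferase, by 0.66 ± 0.17 (adjusted p = 0.048). When each library was left out in turn, SPEN kept its call in 7 of 9 fits, losing it without replicate 1 or 2 of DAOY at 8 h (0.92 and 0.84), MAML1 in 2 (without replicate 1 at 0 h or replicate 0 at 2 h), NUMB in 1 (without replicate 0 of DAOY at 0 h), and CREBBP and HEY2 in 0. On the TPM scale by limma 0 of these 5 passed. In the interactions, 0 of 62 further genes passed the FDR by edgeR or DESeq2 at either time, with 5 and 2 at an unadjusted p under 0.05, against 6.4% and 8.74% of all genes.

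After each line's mean had been removed, the genes whose log2(TPM + 1) followed a member most closely over the 18 libraries were found among about 9350 genes with at least 5 TPM in both lines. For NOTCH1 these were IER2, an immediate early gene (Pearson r = 0.90), and FBRSL1 (0.83), for NOTCH3 QSOX1 (0.86) and TRIM8 (0.83), and for RBPJ ANTXR2 (0.90) and SFXN1 (0.87). HEY1 went most closely with KDM1B, a histone demethylase (0.85), and XPO7 (0.84), JAG1 with ARHGAP31 and HIF1AN (0.75 for both), and HES1 with MARS (0.80) and CAMKMT (0.77), the latter at 0.93 within U87mg and -0.18 within DAOY. For NOTCH2 the genes were AKR1C2 (0.82) and ZFAND5 (0.81), and this likeness held within the 9 DAOY libraries (0.91 and 0.94) and not within those of U87mg (-0.21 and -0.09). These values are descriptions, since libraries of a group share their exposure and those of a line their cells, and the 2 closest of all these genes were picked.

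In GENCODE 29 on GRCh38, all 10 genes are protein coding. NOTCH1 lies at chr9:136494433-136545786, NOTCH2 at chr1:119911553-120069626, NOTCH3 at chr19:15159038-15200981, JAG1 at chr20:10637684-10673999, JAG2 at chr14:105140981-105168824, DLL1 at chr6:170282206-170306565 and HEYL at chr1:39624153-39639945, these on the minus strand, as is HEY1 on chromosome 8. HES1 lies at chr3:194136145-194138732 and RBPJ at chr4:26163455-26435131, on the plus strand. NOTCH2 has a near-identical partial copy, NOTCH2NLA, listed at 5.79 to 18.8 TPM, and RBPJ has pseudogenes listed at or under 0.257 TPM, so that the division of reads between these genes and their copies is uncertain.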

How the data were processed

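RNA-SEQ of poly-A RNA was analysed in 18 libraries, 3 for each of 6 combinations of U87mg or DAOY with 0, 2 or 8 h. The authors trimmed the reads and ran Kallisto 0.43.0 on GENCODE 24 transcripts (GRCh38.p5). They deposited estimated counts for every transcript in every library, with TPM beside them. The submitters' processing notes also list FastQC 2.0.0, sleuth 0.28.1 and R 3.2.1. Columns of the authors' own Sleuth comparisons (p, q and fold change on the log scale) were not used. Whether Kallisto used strand is not given in the sources used here.

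By identifier 99.2% of transcripts matched GENCODE 29, and estimated counts and TPM were summed per gene. Counts were rounded, filtered by filterByExpr, scaled by TMM and tested with edgeR 4.0.16 (glmQLFit and glmQLFTest, R 4.3.3), in the 9 libraries of a line for the field and in all 18 for the line difference and the interactions, with Benjamini-Hochberg adjustment over all features tested. The study's criteria were kept for differential expression (FDR under 0.05 with a log2 fold change of 1 or more in size), and interactions used the FDR alone. The fits were also run on simulated counts, with a spread common to all genes and planted changes larger than most seen here after the field. The outcome is not reported here. All 10 members are named. Of 70 further pathway genes, those past the FDR are named, at most 5 by p in each direction and comparison, and for each member above the filter in both lines the 2 genes most correlated with it. The members and lists were chosen with earlier results of these data known. Alternatives were DESeq2 1.42.0, limma 3.58.1 on log2(TPM + 1) and log2(TPM + 0.1), DESeq2 size factors, no filter on low counts, a minimum of 10 counts in each sample, gene names as deposited, the replicate block, other sample sets, the FDR alone and each library left out in turn. Other tools were Python 3.11.15, pandas 2.3.3, numpy 2.4.6, scipy 1.17.1 and matplotlib 3.10.9. According to the methods, each library is a biological replicate, and the 3 with the best quality results were chosen per group. Depth was 8341976 to 15610886 estimated counts per library. Intervals and floors of 3 counts cover counting error only. Promoter windows came from RefSeq. A gene of the marker lists is not reported here.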

Additional observations from a re-analysis of the deposited data

How the results depend on the processing

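Under the 11 alternatives for each line and time, the 8 for each interaction and the fits that left out 1 library each, 0 members passed both criteria after 2 or 8 h in either line and 0 passed in the interactions, as in the results given. At 0 h the count of members called, JAG2, DLL1 and HEYL included, was 7, and 3 where at least 10 counts were required in every sample, so that fewer genes were tested. The further pathway genes called at 0 h numbered 25, 44 by the FDR alone and 13 under that minimum of 10 counts. JAG1, HES1, HEY1 and RBPJ kept their direction and their call at 0 h in every alternative that gave a value. The p-values rest on 3 libraries a group, and low counts limit HES1 and HEY1 in U87mg and JAG2, DLL1 and HEYL in both lines.

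Other counts moved more. Of all genes at 0 h, 6832 were called, and 3275 with at least 10 counts in every sample. In U87mg at 2 h, 0 genes were called, 76 without a filter, 5 with DESeq2, 2 with only the 6 samples compared and 1 with limma at either pseudocount. In U87mg at 8 h, 86 genes were called, 254 without a filter, 230 by the FDR alone, 1 with limma at either pseudocount and 0 with only the 6 samples. In DAOY at 2 h, 0 genes were called, 99 without a filter and 1 with DESeq2. In DAOY at 8 h, 469 were called, 897 without a filter, 843 by the FDR alone, 736 with all 18 samples in one fit and 179 with only the 6 samples. For the 2 h interaction, 0 genes were called, 112 without a filter and 3 with DESeq2. For the 8 h interaction, 2 were called, 219 without a filter, 81 with DESeq2, 5 with limma on log2(TPM + 1), 1 with limma on log2(TPM + 0.1) and 1 with at least 10 counts in every sample. The 1 further pathway gene called by both criteria at 8 h in U87mg was lost (0) with limma at either pseudocount, at least 10 counts, all 18 samples or only the 6 samples, and 2 passed by the FDR alone. In DAOY at 8 h the 1 such gene was lost (0) with limma at either pseudocount, DESeq2 size factors, all 18 samples or only the 6, 2 passed with DESeq2, and 5 by the FDR alone. The causes were not tested.

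Whether the replicate numbers of the labels pair the samples was not tested, and only correlations are given. Deviations of same-numbered samples correlated between -0.18 and 0.24 in U87mg (median 0.13) and between -0.19 and 0.44 in DAOY (median 0.06). Those of different-numbered samples correlated between -0.24 and 0.26 (median -0.03) and between -0.26 and 0.43 (median -0.15). Of 18 samples, 7 correlated best with their own number. With the replicate block, 0 members were called after 2 or 8 h, 7 at 0 h between the lines and 0 in the interactions. Over all genes the block gave 1 and 53 calls in U87mg at 2 h and 8 h, 0 and 312 in DAOY, and 0 further pathway genes passed both criteria at 8 h in either line.

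When each library was left out in turn, all genes called ranged from 0 to 72 in U87mg at 2 h and from 0 (without replicate 2 at 8 h) to 134 (without replicate 0 at 0 h) at 8 h, from 31 (without replicate 1 at 8 h) to 405 in DAOY at 8 h, and from 1 to 4 for the 8 h interaction. Further pathway genes called ranged from 0 to 1 in U87mg at 2 h, from 0 to 1 at 8 h, and from 0 to 1 in DAOY at 8 h.

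Several log2 fold changes near 0 turned direction, and in each of those cases neither value passed. In U87mg at 2 h, NOTCH2 was -0.01 without a filter, and NOTCH3 0.10 and 0.13 with limma. In U87mg at 8 h, HEY1 was -0.01 with limma on log2(TPM + 1) and RBPJ 0.02 with limma at either pseudocount. In DAOY at 2 h, RBPJ was -0.05 with limma at either pseudocount. In DAOY at 8 h, NOTCH2 was -0.02 and -0.03 with limma, -0.004 without a filter and -0.01 with all 18 samples, and JAG1 was 0.0018 with DESeq2 or its size factors. With 1 library left out, the ranges that crossed 0 in U87mg at 2 h were -0.06 to 0.10 for NOTCH2, -0.26 to 0.07 for JAG1 and -0.20 to 0.75 for HEY1. In U87mg at 8 h they were -0.26 to 0.14 for NOTCH1, -0.18 to 0.27 for NOTCH3, -0.88 to 0.08 for HES1, -0.19 to 0.73 for HEY1 and -0.15 to 0.08 for RBPJ. In DAOY at 2 h they were -0.04 to 0.24 for NOTCH2, -0.23 to 0.68 for HEYL and -0.12 to 0.19 for RBPJ, and at 8 h -0.13 to 0.14 for NOTCH2, -0.16 to 0.11 for JAG1 and -0.10 to 0.70 for HEYL. In the interactions they were -0.07 to 0.22 for NOTCH2 and -0.25 to 0.09 for JAG1 at 2 h, and -0.27 to 0.01 for NOTCH2 at 8 h.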
